A study of Mus musculus with 32 samples.

Results

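The citric acid cycle enzymes described here are 9 genes of the mouse kidney cortex, *Cs*, *Idh2*, *Idh3a*, *Ogdh*, *Sucla2*, *Suclg1*, *Sdha*, *Fh1* and *Mdh2*, taken by their symbols from a table of read counts for 32544 genes. They were named as enzymes or enzyme subunits of the cycle and not by how they moved. The bulk RNA-Seq data came from 32 mice of the C57BL/6J-*Col4a3*tm1Dec strain killed at 25 weeks of age, 4 in each of 8 groups. Control mice were *Col4a3*+/- and Alport mice *Col4a3*-/-, so every mouse carried at least 1 disrupted *Col4a3* allele, in all of its cells. Mice of both sexes and genotypes received vehicle or nicotinamide riboside (NR), a precursor of NAD+ given with the diet. Alport syndrome is an inherited disease of the collagen IV network of the glomerular basement membrane, and the comparisons ask how the cortex of Alport mice differs from that of controls and what NR treatment does in each genotype.

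The citric acid cycle runs in the mitochondrial matrix, where it oxidizes the acetyl group of acetyl-CoA to carbon dioxide and passes the electrons to NAD+ and, at succinate dehydrogenase, directly to the respiratory chain. The cells of the proximal tubule, which fill most of the renal cortex, are packed with mitochondria and draw on fatty acids and other fuels that enter the cycle as acetyl-CoA. Several dehydrogenases of the cycle use NAD+ as the electron acceptor.

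Total counts were 16621944 to 27778797 per library (median 22071395), and 18319 to 19936 genes had at least 1 count. The 9 enzymes were well covered, with 2396 to 28374 counts per gene and mouse. Levels are given as CPM, the count scaled to a common library total with a factor per library from the trimmed mean of M values (TMM), and a log2 fold change (log2FC) is the fitted log2 ratio of 2 group levels. *Col4a3* transcripts were still counted in the 16 Alport mice, at 49.0 to 83.7 CPM, and the 8 vehicle-treated controls had 140 to 200.1 CPM. Female controls given NR had 104.8 to 123.4 CPM, below all 8 vehicle-treated controls and above the Alport mice. Male controls given NR had 59.0, 93.7, 74.9 and 160.3 CPM in replicates 1 to 4, and replicates 1 and 3 lay within the range of the Alport mice. The ratio of *Col4a3* to *Col4a4* counts, used because of that overlap, ran from 0.293 to 0.413 over the Alport mice and from 0.537 to 0.822 over the 16 controls, so no library went against its genotype label by this ratio. Counts of the 9 enzymes and ratios that rest on male controls given NR are given below with and without replicates 1 and 3. Adipocyte markers were at or near 0, with a summed level of 4 genes of 0.148 to 4.92 CPM over the 32 mice.

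On the mm10 build, positions from the GENCODE annotation place *Cs* at chr10:128337734-128362479, *Idh2* at chr7:80094846-80115392, *Idh3a* at chr9:54586334-54604661, *Ogdh* at chr11:6291633-6356642 and *Sucla2* at chr14:73525319-73596142. On the same build *Suclg1* lies at chr6:73248382-73276911, *Sdha* at chr13:74322254-74350280, *Fh1* at chr1:175600374-175625635 and *Mdh2* at chr5:135778480-135790398. The 9 genes thus sit on 9 different chromosomes, and each level below rests on 1 count per gene and mouse. Levels between genes are compared only per kilobase of annotated exon. That length joins all exons GENCODE lists for a gene (5779 bases for *Cs*, 5072 for *Idh3a* and 4126 for *Sdha*). It can be longer than the transcripts that were counted, and the annotation behind the counts was not given. The order of the genes depends on these lengths. In vehicle-treated male controls *Sdha* had the highest level at 268 ± 13.1 CPM per kilobase (SD, n = 4), followed by *Idh2* at 228 ± 13.3, *Ogdh* at 134 ± 11.7 and *Mdh2* at 115 ± 4.17 CPM per kilobase. Lower down came *Suclg1* at 75.4 ± 5.69, *Fh1* at 67.7 ± 2.42, *Sucla2* at 65.4 ± 1.51, *Cs* at 45.0 ± 1.77 and *Idh3a* at 33.1 ± 0.964 CPM per kilobase. Only *Fh1* and *Sucla2* overlapped as neighbors in this order, at 65.0 to 70.4 and 63.8 to 67.4 CPM per kilobase. In vehicle-treated female controls the order was the same except that *Fh1*, at 61.4 ± 5.36 CPM per kilobase, and *Suclg1*, at 61.0 ± 2.17, could not be told apart.

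Promoter sequences were looked up because the 9 genes varied together, as described below. RefSeq windows of 250 bases before to 50 after a start site on GRCm38.p6 were found for 8 of the 9 genes, with 13 windows in all, since *Ogdh* has several start sites. Their GC content was 49.3% to 72.3%, and the median of all 32851 windows was 52.7%. On both strands, the letters TGACGTCA of a cAMP response element were found for *Mdh2* and *Ogdh*, and 1.79% of all windows hold them. The core of the NRF1 element, GCGCATGC, was found only at downstream start sites of *Ogdh* (2.71% of all windows). Neither the element of the estrogen-related receptors, TCAAGGTCA (0.423% of all windows), nor a direct repeat of AGGTCA with 1 base between (0.0396%) was found in a window of the 9 genes, which says only that these letters are not in these windows. The first 2 sequences below hold the response element, shown in capitals, and the last is that of *Cs*, the enzyme with the smallest difference between genotypes, whose window holds none of the 4 motifs. The stretches lie at chr11:6291477-6291596, chr5:135778511-135778540 and chr10:128337607-128337726, all on the + strand of GRCm38.p6, and are written 5′ to 3′. That of *Mdh2* lies before the RefSeq start site but inside the gene as GENCODE places it, from 135778480 on.
Ogdh: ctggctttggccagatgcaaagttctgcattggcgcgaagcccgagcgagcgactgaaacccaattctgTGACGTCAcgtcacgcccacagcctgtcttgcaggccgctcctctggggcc
Mdh2: ggagagaatcgTGACGTCAggcctcgctcg
Cs: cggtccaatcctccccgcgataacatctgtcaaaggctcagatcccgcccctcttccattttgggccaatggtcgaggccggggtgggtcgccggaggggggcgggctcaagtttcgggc

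All 9 enzymes fell in vehicle-treated Alport mice of both sexes. In each sex, the highest of the 4 Alport mice lay below the lowest of the 4 controls for all 9 genes. The share of all genes that separate in this way was not counted. The 9 genes varied together within groups (median correlation 0.87), so they do not stand for 9 separate results. The median log2FC of the 9 genes was −0.55 in males and −0.57 in females, where the median over all genes tested was −0.0013 and −0.00083. Genes called lower by the edgeR quasi-likelihood test made up 24% of 15286 genes tested in males and 21.8% of 15709 in females. In bulk tissue, fewer cells of a type and less RNA per cell cannot be told apart.

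**Figure D1:**
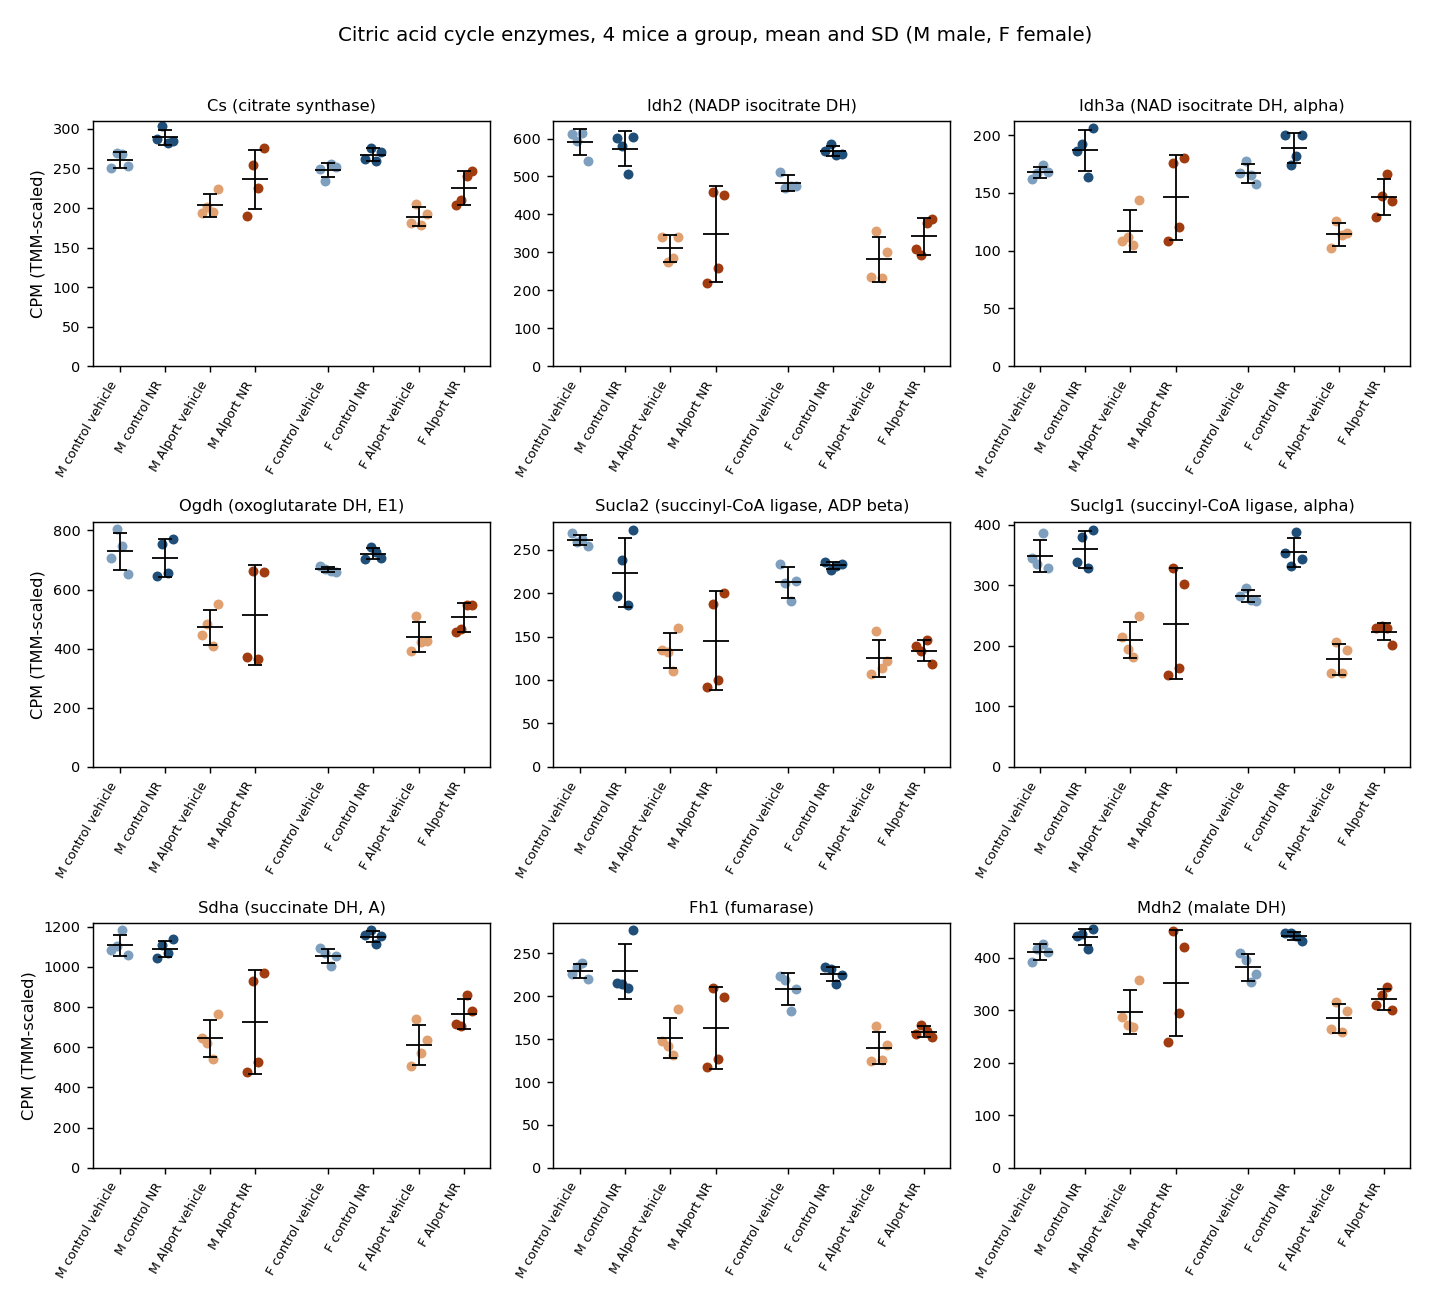
Levels of the 9 enzymes in the 32 mice as TMM-scaled CPM on linear axes from 0, with 4 points for each group of 4 mice, the mean as a horizontal bar and the SD as an error bar (DH, dehydrogenase). In both sexes the vehicle-treated Alport mice sit below the controls for all 9 genes, and the male Alport mice given NR spread widely, for example from 475 to 970 CPM for *Sdha*.

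Citrate synthase, which joins acetyl-CoA to oxaloacetate at the entry of the cycle, fell least. *Cs* was 250.3, 269, 269 and 253 CPM in male controls and 194, 201, 195 and 224 CPM in male Alport mice (log2FC −0.28 ± 0.08 (SE), adjusted p = 0.0116). In females it was 249.9, 235, 255 and 252 CPM in controls and 181, 205, 178 and 192 CPM in Alport mice (log2FC −0.35 ± 0.08 (SE), adjusted p = 0.00289). The 4 Alport mice of each sex were close together and did not reach the lowest control.

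The isocitrate dehydrogenases fell by different amounts. *Idh2*, the NADP-dependent mitochondrial enzyme, was 611, 595, 616 and 541 CPM in male controls and 339.7, 275, 284 and 341 CPM in male Alport mice, which is 55.5% of the control level (log2FC −0.85 ± 0.10 (SE), adjusted p = 2.1e-05). In females *Idh2* was 513, 469, 474 and 475 CPM in controls and 235, 357, 233 and 300.1 CPM in Alport mice (log2FC −0.74 ± 0.14 (SE), adjusted p = 0.00117). Its lowest control lay well above the highest Alport mouse in either sex. *Idh3a*, the catalytic alpha subunit of the NAD-dependent enzyme of the cycle proper, was 162, 167, 174 and 168 CPM in male controls and 108, 111, 105 and 144 CPM in male Alport mice (log2FC −0.44 ± 0.10 (SE), adjusted p = 0.00217). In females *Idh3a* was 167, 177, 166 and 158 CPM in controls and 102, 126, 113 and 115 CPM in Alport mice (log2FC −0.51 ± 0.08 (SE), adjusted p = 0.000385). Male Alport replicate 4 was the highest of its group for *Idh3a*, and it was so for each of the 9 genes.

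*Ogdh* encodes the E1 component of the 2-oxoglutarate dehydrogenase complex, which makes succinyl-CoA and NADH. It was 707, 805, 749 and 654 CPM in male controls and 448, 483, 409 and 550.3 CPM in male Alport mice (log2FC −0.55 ± 0.11 (SE), adjusted p = 0.00134), and in females 681, 669, 664 and 659.8 CPM in controls and 394, 512, 424 and 428 CPM in Alport mice (log2FC −0.57 ± 0.10 (SE), adjusted p = 0.00084). Male controls spread more than female controls, and neither sex showed an overlap of genotypes.

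Succinyl-CoA ligase turns succinyl-CoA into succinate and is the step of the cycle that forms a nucleoside triphosphate. *Sucla2*, its ADP-specific beta subunit, was 269, 259, 262 and 254 CPM in male controls and 134, 132, 110.4 and 159 CPM in male Alport mice, or 54.3% of the control level (log2FC −0.88 ± 0.10 (SE), adjusted p = 1.33e-05). In females *Sucla2* was 234, 211, 190.4 and 214 CPM in controls and 107, 156, 114 and 122 CPM in Alport mice (log2FC −0.73 ± 0.12 (SE), adjusted p = 0.000526). The log2FC of *Sucla2* was the lowest of the 9 in males. *Suclg1*, the alpha subunit shared by the ADP- and GDP-specific forms, was 344, 335, 386 and 328 CPM in male controls and 214, 194, 181 and 249.8 CPM in male Alport mice (log2FC −0.65 ± 0.11 (SE), adjusted p = 0.000236). In females *Suclg1* was 282, 296, 275 and 274 CPM in controls and 155, 206, 156 and 193 CPM in Alport mice (log2FC −0.63 ± 0.10 (SE), adjusted p = 0.000634).

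*Sdha*, the flavoprotein subunit of succinate dehydrogenase (complex II of the respiratory chain), was 1082, 1103, 1182 and 1057 CPM in male controls and 646, 621, 541 and 766 CPM in male Alport mice (log2FC −0.70 ± 0.12 (SE), adjusted p = 0.000264). In females it was 1092, 1068, 1005 and 1052 CPM in controls and 504, 738, 573 and 635 CPM in Alport mice, or 59.7% of the control level (log2FC −0.74 ± 0.12 (SE), adjusted p = 0.000593). The decrease of *Sdha* was the largest of the 9 in females, with *Idh2* (−0.74) and *Sucla2* (−0.73) within 1 standard error of it.

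The last steps back to oxaloacetate are those of fumarase and malate dehydrogenase. *Fh1*, fumarase, was 226, 234, 239 and 220.5 CPM in male controls and 147, 142, 131 and 185 CPM in male Alport mice (log2FC −0.52 ± 0.10 (SE), adjusted p = 0.00087), and in females 223, 219, 183 and 208 CPM in controls and 124, 165, 126 and 143 CPM in Alport mice (log2FC −0.54 ± 0.10 (SE), adjusted p = 0.00149). Female control replicate 3 and female Alport replicate 2 came closest, at 183 and 165 CPM. *Mdh2*, the mitochondrial malate dehydrogenase, was 391, 416, 427 and 409.8 CPM in male controls and 288, 273, 267 and 358 CPM in male Alport mice (log2FC −0.39 ± 0.10 (SE), adjusted p = 0.00644). In females *Mdh2* was 409, 396, 353 and 368 CPM in controls and 263, 316, 259 and 299 CPM in Alport mice (log2FC −0.39 ± 0.09 (SE), adjusted p = 0.00546). *Cs* and *Mdh2*, the enzymes on either side of oxaloacetate, had the smallest decreases in both sexes.

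These decreases are relative to the middle of the other genes. Scaling by total counts alone, without TMM factors, moved the median log2FC of all genes to 0.34 in males and 0.26 in females, and the share of lower genes among those called from 47.3% to 13.5% and from 47.6% to 15.8%. Under that scaling 6 of 9 enzymes were called lower in males and 7 of 9 in females, and *Cs* in males turned to a log2FC of 0.06. The values of all 9 stayed below that shifted median in both sexes.

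**Figure D2:**
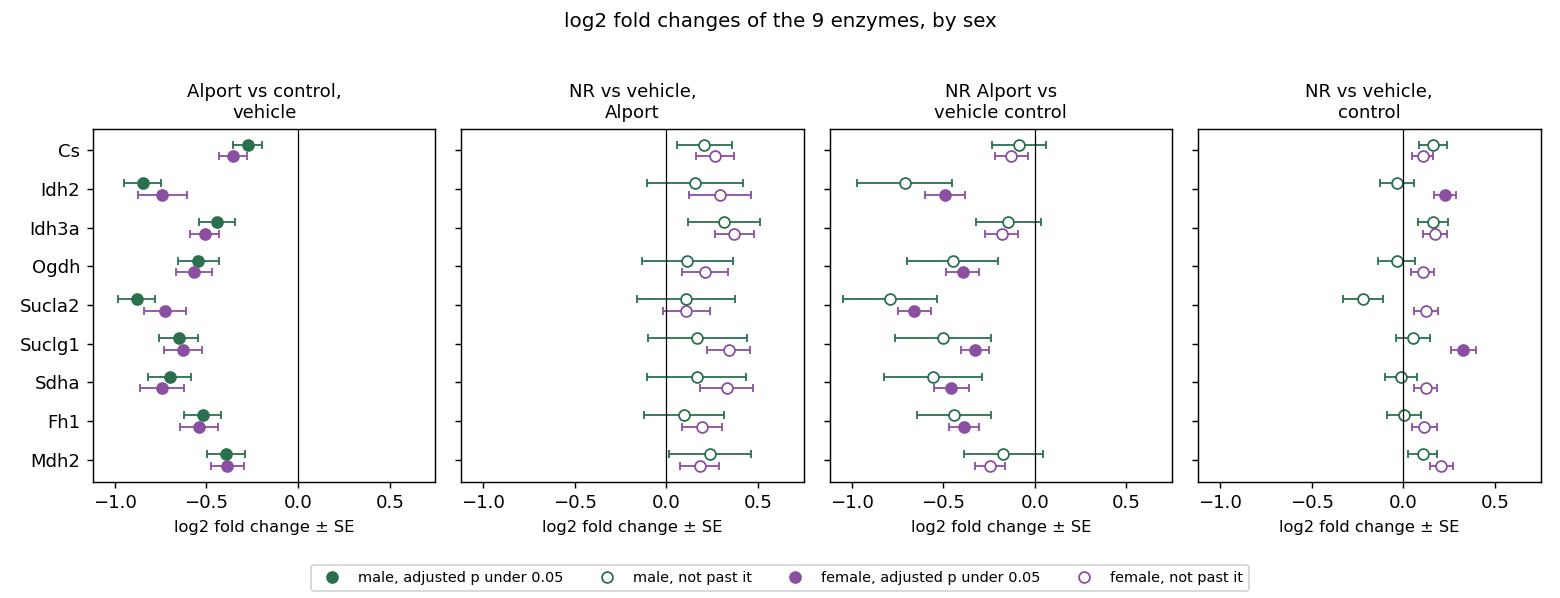
Fitted log2FC (points) with standard errors (bars) of the 9 enzymes in 4 comparisons, for males (green) and females (purple), filled where the adjusted p of the edgeR test is under 0.05. All 18 points of the genotype comparison are filled and negative, and all 18 points of NR in Alport mice are open and positive.

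The other core genes of the cycle fell with them. All 9 genes of that list were called lower in Alport mice of either sex, among them the remaining subunits of NAD-dependent isocitrate dehydrogenase (*Idh3b*, *Idh3g*), oxoglutarate dehydrogenase (*Dlst*, *Dld*), succinyl-CoA ligase (*Suclg2*) and succinate dehydrogenase (*Sdhb*, *Sdhc*, *Sdhd*). Their median log2FC was −0.65 in males and −0.64 in females. Over these named subunits the values ran from −0.78 (*Dld*) to −0.57 (*Sdhc*) in males and from −0.67 (*Dld*) to −0.50 (*Sdhc*) in females. Of 9 genes that bring pyruvate into the cycle, 8 fell in each sex, among them *Mpc1* of the mitochondrial pyruvate carrier (−0.84 ± 0.11 in males, −0.81 ± 0.13 in females) and the pyruvate dehydrogenase phosphatase *Pdp2* (−0.92 ± 0.09 and −0.91 ± 0.15). The other phosphatase, *Pdp1*, rose in males (log2FC 0.76 ± 0.15) and had a log2FC of 0.27 ± 0.13 in females (adjusted p = 0.107). Of the 4 pyruvate dehydrogenase kinases, 3 fell in males and 2 in females.

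Genes beside the cycle were less uniform. Of 17 genes for side reactions and carriers, 11 fell in each sex, and 3 rose in males and 1 in females. *Pcx*, pyruvate carboxylase, and *Pck1*, the cytosolic phosphoenolpyruvate carboxykinase of gluconeogenesis, had the lowest values, at −1.01 ± 0.16 and −1.06 ± 0.29 in males and −0.92 ± 0.15 and −1.17 ± 0.25 in females. *Pck2*, the mitochondrial carboxykinase and the 1 gene of these that rose in females, named after its values were seen, rose in both sexes (log2FC 0.63 ± 0.09 in males, 0.43 ± 0.09 in females). Of 4 assembly factors of succinate dehydrogenase, 3 fell in males and 2 in females.

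Lists of other mitochondrial genes and of cell types moved in the same comparison. Of 20 mitochondrial genes outside the cycle (import, chaperones, dynamics), 17 fell in males and 20 in females, with a median log2FC of −0.48 in both. Of 12 proximal tubule markers, 12 fell in males and 11 in females, with medians of −1.09 and −0.93 beside −0.55 and −0.57 for the 9 enzymes. Without *Kap*, an androgen-regulated gene that had 10973 to 13295 CPM in control males, the other 11 summed to 17016 to 20133 CPM in control and 6281 to 10547 CPM in Alport males, and to 15661 to 19391 against 6881 to 10986 CPM in females, without overlap. All 8 immune markers rose in males and 7 in females (medians 3.03 and 2.60), and all 6 fibroblast markers (3.49 and 2.46) and all 4 markers of injured tubule (6.32 and 5.40) rose in both sexes. The summed immune level ran from 127 to 144 CPM over the male controls and from 931 to 1205 CPM over the Alport males. Their part in the decrease of the cycle enzymes was not tested. Of 10 markers of the loop of Henle, distal tubule and collecting duct, 6 fell in each sex. All 5 podocyte markers rose in males and 4 in females, and 4 of 5 endothelial markers rose in males and 3 in females.

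No difference between the sexes in the effect of genotype was called for any of the 9 enzymes. In the 16 vehicle-treated mice, the interaction of sex and genotype was −0.13 (*Sucla2*) to 0.11 (*Cs*) on the log2 scale, 0 of 9 had an unadjusted p under 0.05, and DESeq2 and limma-voom also called 0. Over all genes, 0.495% of 16152 were called in this test. Between vehicle-treated controls, 3 of the 9 were higher in males, against 15.8% of all genes tested. These were *Idh2* (log2FC 0.27 ± 0.07 (SE), adjusted p = 0.00847), *Sucla2* (log2FC 0.28 ± 0.07 (SE), adjusted p = 0.00752) and *Suclg1* (log2FC 0.28 ± 0.07 (SE), adjusted p = 0.00667), with all 4 males above all 4 females. *Idh3a* had a log2FC of −0.01 ± 0.06 between the sexes. Higher levels in males were also called for 4 of the 9 other core genes of the cycle and 12 of the 20 mitochondrial genes outside it. The medians of these lists were 0.17 and 0.21, beside 0.10 for the 9 enzymes. In 1 fit of all 32 mice, 0 of the 9 enzymes were called between the sexes, and with total counts alone 1 of 9.

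None of the 9 enzymes was called between NR and vehicle in Alport mice. All 9 had a log2FC above 0 in males and in females, with a median of 0.16 (0.10 to 0.31) in males and 0.27 (0.11 to 0.37) in females, where the median of all genes was 0.01 and 0.00049. In edgeR, 0 of 9 had an unadjusted p under 0.05 in males and 4 of 9 in females, limma-voom called 0 in either sex, and DESeq2 called 0 in males and 1, *Idh3a*, in females (adjusted p = 0.0378). Genes called higher made up 0% of 15500 in males and 0.382% of 15712 in females. The 20 mitochondrial genes outside the cycle moved by similar amounts, with medians of 0.15 in males and 0.30 in females. Of these, 19 in males and 20 in females were above 0, and 0 were called. With total counts alone, the median of all genes moved to −0.08 and −0.16, and 3 of the 9 enzymes in males and 1 in females turned below 0.

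*Idh3a* had the largest log2FC of the 9 in both sexes. In males it was 108, 111, 105 and 144 CPM with vehicle and 109, 176, 120.4 and 179.8 CPM with NR (log2FC 0.31 ± 0.20 (SE), adjusted p = 0.943). In females it was 102, 126, 113 and 115 CPM with vehicle and 129, 147, 166 and 143 CPM with NR (log2FC 0.37 ± 0.11 (SE), adjusted p = 0.161). The 4 NR-treated females all lay above the 4 vehicle-treated females, which held for no other of the 9 genes.

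In females, *Suclg1* was 155, 206, 156 and 193 CPM with vehicle and 229.8, 232, 229 and 201 CPM with NR (log2FC 0.34 ± 0.12 (SE), adjusted p = 0.212). *Sdha* was 504, 738, 573 and 635 CPM with vehicle and 713, 705, 862 and 778 CPM with NR (log2FC 0.33 ± 0.15 (SE), adjusted p = 0.297), and *Cs* was 181, 205, 178 and 192 CPM with vehicle and 204, 210.5, 241 and 247 CPM with NR (log2FC 0.27 ± 0.10 (SE), adjusted p = 0.248). Replicate 2 of the vehicle-treated females was the highest of its group for all 9 genes and made the groups overlap for *Sdha*. *Sucla2* had the lowest log2FC of the 9 in females, 0.11 ± 0.13, with 139, 133, 146 and 118 CPM in the 4 NR-treated mice.

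In males, replicates 2 and 4 of the NR-treated Alport mice were higher than replicates 1 and 3 for each of the 9 enzymes. *Sdha* was 475, 929, 526 and 969.9 CPM in replicates 1 to 4, against 646, 621, 541 and 766 CPM with vehicle. *Suclg1* was 152, 328, 164 and 302 CPM with NR and 214, 194, 181 and 249.8 CPM with vehicle, and *Sucla2* was 92.0, 188, 100.4 and 200.3 CPM with NR and 134, 132, 110.4 and 159 CPM with vehicle. Replicates 2 and 4 lay above all vehicle-treated mice for each of the 9 genes, and replicates 1 and 3 lay below all of them for *Idh2*, *Ogdh*, *Sucla2*, *Suclg1*, *Sdha* and *Fh1*. The standard errors of the log2FC were 0.15 to 0.27 in males and 0.10 to 0.17 in females. The mean log2 CPM of the proximal tubule markers, *Kap* among them, was 8.53, 9.93, 8.03 and 9.96 in the same 4 mice. In these mice *Kap* was 902, 3837, 153 and 6454 CPM, and the other 11 markers summed to 4107 to 13876 CPM. The mean of the immune markers was 5.34, 3.82, 3.53 and 4.12, so replicate 1 was high and replicate 3 low in immune markers. The part of these markers in this spread was not tested. Leaving out 1 of these 4 mice at a time moved the log2FC of *Sdha* from −0.01 (without replicate 4) to 0.32 (without replicate 1).

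Over both sexes, with sex as a term, 0 of the 9 enzymes were called in the 16 Alport mice. Here 1.03% of 16189 genes were called higher with NR, and 2 of the 9 had an unadjusted p under 0.05, while DESeq2 and limma-voom called 0. *Idh3a* (log2FC 0.35 ± 0.11 (SE), adjusted p = 0.115) and *Cs* (log2FC 0.25 ± 0.08 (SE), adjusted p = 0.138) came closest, and both were called without male Alport NR replicate 1 (adjusted p = 0.0144 and 0.016 in edgeR) and in 1 fit of all 32 mice. Of the other 9 core genes of the cycle 0 were called, with a median of 0.20. The median was 0.23 for the 20 mitochondrial genes outside the cycle and 0.24 for the 9 enzymes. Called genes around the cycle were *Pdk4*, the kinase that shuts off pyruvate dehydrogenase (log2FC 1.73 ± 0.42, adjusted p = 0.0498), and *Slc25a1*, the mitochondrial citrate carrier (0.39 ± 0.09, adjusted p = 0.0291). With 1 mouse left out at a time, edgeR called *Pdk4* in 4 and *Slc25a1* in 5 of 16 fits (adjusted p of 0.0215 to 0.112 and 0.00045 to 0.0847). *Pdk4* was 57.4, 41.9, 81.7 and 425.8 CPM in replicates 1 to 4 of the NR-treated females, and all 4 females given vehicle were below replicates 1, 3 and 4. The log2FC of *Pdk4* was 1.10 without replicate 4 (adjusted p = 0.0985). In females *Slc25a1* did not overlap between NR (113 CPM or more) and vehicle (97 CPM or less). In males it overlapped, with 89.8, 140.4, 129.6 and 125 CPM with NR and 97.4, 95.0, 92.5 and 104.7 CPM with vehicle. The difference of the sexes in the effect of NR in Alport mice was called for 0 of 9 enzymes and for 0% of 16189 genes, with 0 of 9 and 361 genes at an unadjusted p under 0.05 in edgeR, 0 of 9 in DESeq2 and 0 of 9 in limma-voom.

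The levels of NR-treated Alport mice were then set beside those of vehicle-treated controls. This comparison shares its controls with that of the vehicle-treated mice, so the values are only given side by side. In females, 6 of 9 enzymes were lower than in vehicle-treated controls, against 11.4% of 15381 genes. They were *Sucla2* (−0.66 ± 0.09), *Idh2* (−0.49 ± 0.11), *Sdha* (−0.45 ± 0.09), *Ogdh* (−0.39 ± 0.09), *Fh1* (−0.39 ± 0.08) and *Suclg1* (−0.33 ± 0.08), and *Cs* (log2FC −0.13 ± 0.09 (SE), adjusted p = 0.332), *Idh3a* (log2FC −0.18 ± 0.09 (SE), adjusted p = 0.169) and *Mdh2* (log2FC −0.24 ± 0.08 (SE), adjusted p = 0.0571) were not called, although *Mdh2* was without NR-treated Alport replicate 3 (adjusted p = 0.0428). In males, 0 of 9 were called by edgeR, with all 9 log2FC below 0, a median of −0.45, 2 of 9 at an unadjusted p under 0.05 and 6.75% of 15077 genes called lower. DESeq2 called *Sucla2* and *Idh2*, limma-voom called 0, and 1 fit of all 32 mice called 6. For *Sucla2* (log2FC −0.79 ± 0.26 (SE), adjusted p = 0.0551) and *Idh2* (log2FC −0.71 ± 0.26 (SE), adjusted p = 0.0788) all 4 NR-treated Alport males still lay below all 4 controls, and both were called without replicate 2 or replicate 4 of the NR-treated Alport males (adjusted p = 0.0223 to 0.0433 in edgeR).

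In control mice, 2 of the 9 enzymes rose with NR in females and 0 in males. All 9 log2FC were above 0 in females, with a median of 0.13, and 6 of 9 genes had all 4 NR-treated mice above all 4 vehicle-treated mice. How many of all genes did so was not counted. The 9 genes varied together within groups (median correlation 0.87), so 6 of 9 does not stand for 6 separate results. Genes called higher made up 4% of 14951 in females. In males 5 log2FC were above 0 and 4 below, the median was 0.01, and 4.45% of 14696 genes were called in either direction. For males, 0 of 9 had an unadjusted p under 0.05 in edgeR and 1 in DESeq2, and DESeq2 and limma-voom called 0.

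*Suclg1* was 282, 296, 275 and 274 CPM with vehicle and 354, 331, 388 and 343 CPM with NR in female controls (log2FC 0.33 ± 0.07 (SE), adjusted p = 0.0137). *Idh2* was 513, 469, 474 and 475 CPM with vehicle and 568, 586, 556 and 559 CPM with NR (log2FC 0.23 ± 0.06 (SE), adjusted p = 0.0394). *Mdh2* was 409, 396, 353 and 368 CPM with vehicle and 446, 446, 441 and 432 CPM with NR (log2FC 0.21 ± 0.06 (SE), adjusted p = 0.0667), close to the threshold and called by DESeq2 (adjusted p = 0.00936). For all 3 genes the lowest NR-treated female lay above the highest vehicle-treated one. The call of *Idh2* was lost without any 1 of 7 of the 8 mice (adjusted p = 0.0661 to 0.106), and with a replicate block (0.101). *Suclg1* kept its call without each mouse in turn and with the block (0.0477), but not in 1 fit of all 32 mice (0.467). Beside the 9 enzymes, *Sdhc* of succinate dehydrogenase was the only one of the other 9 core genes called in females (log2FC 0.30 ± 0.06 (SE), adjusted p = 0.0164), and *Slc25a1* rose again (log2FC 0.52 ± 0.06 (SE), adjusted p = 0.00129).

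In male controls, *Sucla2* had the lowest value. It was 269, 259, 262 and 254 CPM with vehicle and 196, 238, 186 and 272 CPM with NR (log2FC −0.22 ± 0.11 (SE), adjusted p = 0.263), with replicates 1 and 3 of the NR-treated mice the lowest. Those are the replicates with *Col4a3* levels in the range of the Alport mice, though their ratios of *Col4a3* to *Col4a4* were in the control range. They also had the lowest *Kap* of the group (2081 and 1425 CPM, against 9811 and 5727 CPM). Their *Pdk4* was the highest (311 and 201 CPM, against 50.4 and 51.6 CPM). Replicate 2, which was kept, had the highest mean log2 CPM of the injured tubule markers (3.65, against 1.83 to 3.19). *Cs* was 250.3, 269, 269 and 253 CPM with vehicle and 287, 303, 282 and 285 CPM with NR, and all 4 NR-treated mice lay above the vehicle-treated ones (log2FC 0.16 ± 0.08 (SE), adjusted p = 0.232). Without replicates 1 and 3 of the NR-treated males, the log2FC of *Sucla2* was −0.04 and that of *Idh3a* 0.24, and 0 of 9 were again called. The 4 markers of injured tubule summed to 20.4 to 63.1 CPM in NR-treated and 9.59 to 14.3 CPM in vehicle-treated male controls. *Kap* ran from 1425 to 9811 CPM with NR and from 10973 to 13295 CPM with vehicle, and the other 11 proximal tubule markers summed to 12273 to 17931 and 17016 to 20133 CPM, with overlap. Their part in the values of the male controls was not tested.

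Over both sexes of control mice, 1 of 9 enzymes was called higher, *Idh3a* (log2FC 0.16 ± 0.05 (SE), adjusted p = 0.0475), beside 5.21% of 15379 genes. The count depended on the test, with 4 of 9 in DESeq2, 3 in limma-voom and 0 with a replicate block, and it was 3 (*Idh3a*, *Suclg1* and *Mdh2*) without male control NR replicates 1 and 3. The call of *Idh3a* was lost without any 1 of 13 of the 16 mice (adjusted p = 0.0552 to 0.0881 in edgeR). The difference between the sexes in the effect of NR on controls was called for 0 of 9 enzymes and for 0.624% of 15379 genes. In that test 3 of 9 enzymes had an unadjusted p under 0.05 in edgeR and limma-voom and 4 in DESeq2. The 3 were *Sucla2* (male minus female −0.35 ± 0.13, adjusted p = 0.193), *Suclg1* (−0.29 ± 0.11, adjusted p = 0.206) and *Idh2* (−0.27 ± 0.10, adjusted p = 0.199). An NR effect called in females and not in males is thus not shown to differ between them. Without male control NR replicates 1 and 3 the value for *Sucla2* was −0.17, and 0 of 9 enzymes and 0 of 15921 genes were called.

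Whether NR acted differently in the 2 genotypes was tested over all 32 mice. The interaction was 0.05 (*Mdh2*) to 0.19 (*Sdha*) on the log2 scale for the 9 enzymes (Alport minus control), and 0 of 9 were called. Its median was 0.12, beside 0.02 over all genes, and was 0.07 without male control NR replicates 1 and 3, where 0 of 9 were again called. With total counts alone the median was 0.0097, beside −0.07 over all genes, and 4 of 9 were below 0. Over all genes 0.0425% of 16469 were called, and for the 9 enzymes 0 had an unadjusted p under 0.05 in edgeR, DESeq2 or limma-voom.

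Ratios within a library do not depend on how libraries are scaled, and 2 were compared for their enzyme roles. The ratio of *Idh2* to *Idh3a* counts sets the NADP-dependent isocitrate dehydrogenase against the alpha subunit of the NAD-dependent one. Ratios to its other subunits, *Idh3b* and *Idh3g*, were not tested. In Alport males *Idh3a* (log2FC −0.44) fell less than all 9 other core genes of the cycle (−0.78 to −0.57), those subunits among them. In females it had −0.51, beside −0.71 to −0.50. The ratio of *Idh2* to *Idh3a* in vehicle-treated males was 3.52 ± 0.23 (SD, n = 4) for controls and 2.68 ± 0.34 for Alport mice. The same groups of females had 2.90 ± 0.19 and 2.45 ± 0.34. Over the 16 vehicle-treated mice the mean log2 ratio was lower in Alport mice by 0.33 (log2 difference −0.33, p = 0.00122, two-sided exact permutation test within sex, adjusted p = 0.00367 over 6 ratio tests). Groups did not overlap in males and overlapped in females. The ratio of *Sucla2* to *Suclg2* sets the ADP- against the GDP-specific form of succinyl-CoA ligase. In males it was 0.436 ± 0.014 for controls and 0.407 ± 0.0031 for Alport mice, and in females 0.472 ± 0.0070 and 0.431 ± 0.026. Its log2 difference was −0.12 (exact permutation p = 0.000408, the smallest the 4900 groupings allow, adjusted p = 0.00245), with every Alport mouse below every control of its sex. NR gave no called difference of either ratio in Alport mice (log2 differences of −0.13 and −0.0014, exact permutation adjusted p = 0.258 and 0.987) or controls (−0.07 and 0.09, adjusted p = 0.297 and 0.144). The sexes had opposite signs for *Sucla2* to *Suclg2* in Alport mice (0.15 in males, −0.15 in females) and for *Idh2* to *Idh3a* in controls (−0.19 in males, 0.06 in females), and the difference between them was not tested. Without male control NR replicates 1 and 3, the differences in controls were −0.09 and 0.12 (exact permutation p = 0.225 and 0.0257, adjusted over these 2 tests 0.225 and 0.0514).

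**Figure D3:**
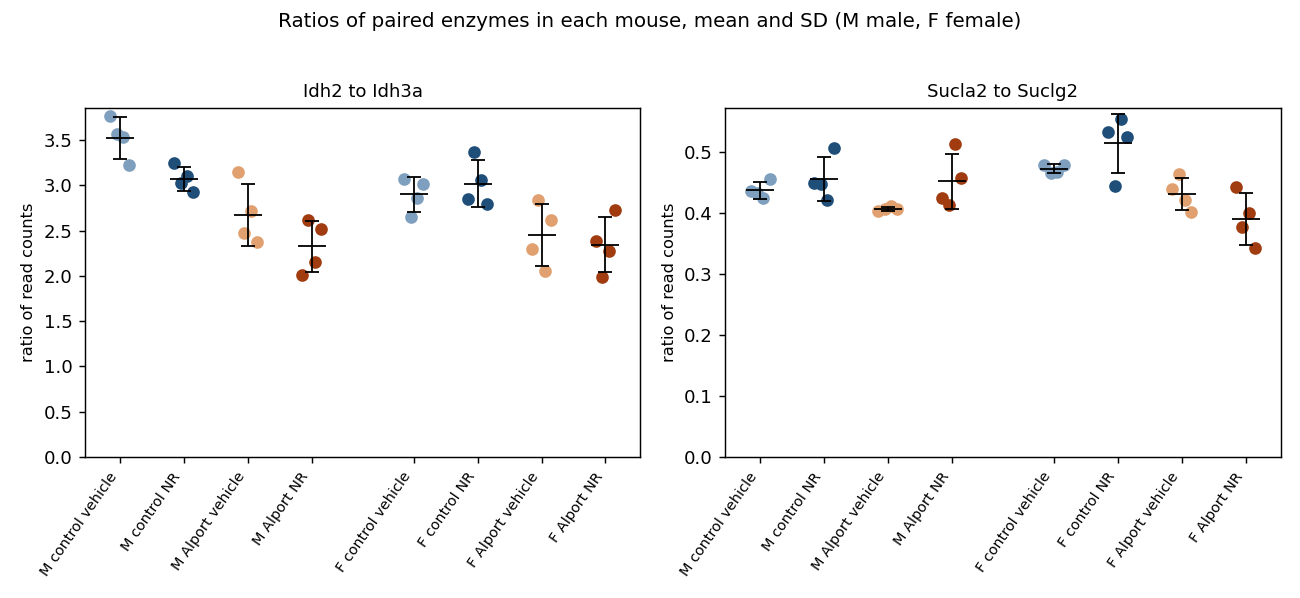
Ratio of read counts of *Idh2* to *Idh3a* (left) and of *Sucla2* to *Suclg2* (right) in the 32 mice, on linear axes from 0, with 4 points, the mean and the SD for each group. The vehicle-treated Alport groups lie below the vehicle-treated controls of their sex in the mean of both ratios.

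Within groups the 9 enzymes varied together. Taking each gene's log2 CPM as a deviation from the mean of its group, the 36 pairs of enzymes had Pearson correlations over the 32 mice of 0.66 to 0.94, with a median of 0.87. *Cs* was the least like the others, with a mean correlation of 0.76, and *Sdha* the most, with 0.91. Among the genes most like the mean of the 9 were *Aifm1*, a flavoprotein of the intermembrane space (0.98), *Atp5b*, the beta subunit of ATP synthase (0.98), *Uqcrc2*, a core subunit of complex III (0.97), and *Scp2*, a peroxisomal sterol carrier protein and thiolase (0.97). Of 9909 genes compared, those with a mean of at least 10 CPM, 630 had a correlation above 0.8, and the median was 0.10. The mean of the other core genes of the cycle had a correlation of 0.99 with the 9 enzymes, that of the 20 mitochondrial genes 0.94 and that of the 12 proximal tubule markers 0.89. Without the 2 mice farthest from their group, male Alport NR replicates 1 and 2 (deviations of the enzyme mean of −0.47 and 0.40), these 3 values were 0.98, 0.91 and 0.88. Replicates 3 and 4 of that group, at −0.32 and 0.40, were kept. The farthest mouse of any other group, male Alport vehicle replicate 4, was at 0.24. Correlations without the whole group, or without *Kap* among the proximal tubule markers, were not computed. The points share libraries and their scaling, so the correlations are a description.

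**Figure D4:**
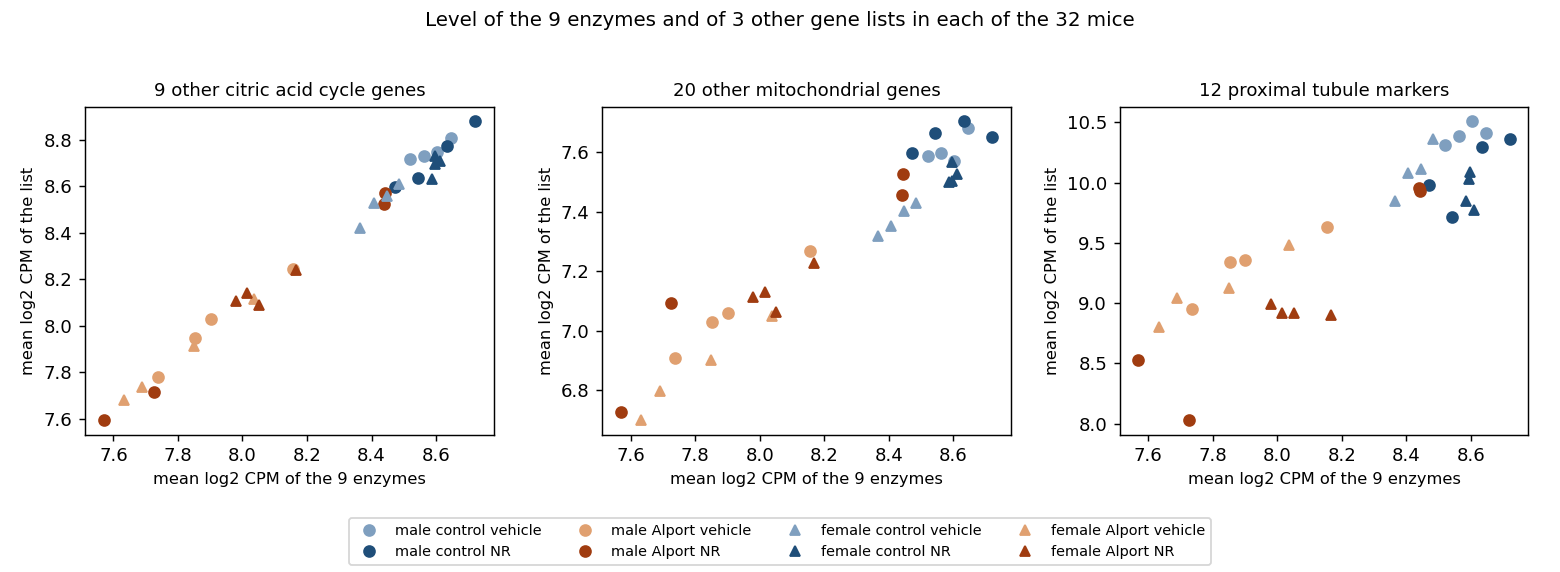
Mean log2 CPM of the 9 enzymes (horizontal axes) against that of the 9 other core genes of the cycle, the 20 other mitochondrial genes and the 12 proximal tubule markers (vertical axes) in each of the 32 mice, with circles for males, triangles for females and colors for genotype and treatment. The points of the other cycle genes lie close to 1 line, and male Alport mice given NR range from 8.03 to 9.96 in proximal tubule markers, which include *Kap*.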

How the data were processed

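RNA was isolated from kidney cortex and sequenced after poly(A) selection, with 1 library for each of 32 mice, so p-values measure the spread among the mice of these groups. The authors deposited a table of raw read counts per gene, made with the BioJupies web tool, in which no replicates were pooled. The submitters' processing notes name the mm10 build. The aligner, the gene annotation and whether strand was used were not given in the sources used here, so overlapping or antisense genes cannot be told apart. A second deposited table of the same libraries, on a log10 scale of CPM plus 1, was not used, and no deposited comparison results were used.

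The counts were analysed in R 4.3.3 with edgeR 4.0.16 (filterByExpr with a minimum count of 10, TMM factors, robust quasi-likelihood F test, Benjamini-Hochberg adjustment over all genes tested, threshold 0.05). Every adjusted p is from edgeR unless another tool is named. Each standard error of a log2FC was derived from that test, as the absolute log2FC divided by the square root of the F statistic. Each comparison used only its own groups, and comparisons over both sexes had sex as a term. Alternatives were DESeq2 1.42.0, limma-voom (limma 3.58.1), other size factors, other filters, a replicate block, all 32 mice in 1 fit and each mouse left out in turn. The fit without robust dispersion, the fits without male control NR replicates 1 and 3, the sums without *Kap*, the fits of *Pdk4* and *Slc25a1* without each mouse and both tests of sex by NR were chosen after seeing the data. Log2 ratios added 0.5 to each count and were tested with Python 3.11.15 and numpy 2.4.6, or in R for the tests without male control NR replicates 1 and 3. The ratios printed for each group are those of the counts with nothing added. Gene lengths and positions came from GENCODE and promoters from RefSeq.

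The 9 enzymes, the gene lists and the marker lists were chosen with earlier results of these data known. The text names all 9 enzymes, genes of the remaining core of the cycle, up to 3 genes with the largest changes from each further list and genes among the 5 most alike in pattern, and 1 gene that this rule would name is not reported here. Replicate numbers were not taken to pair the mice, as the labels do not say what they stand for. Correlations of the deviations of same-numbered mice in 36 pairs were −0.279 to 0.513, with 8 over 0.1. Vehicle-treated Alport and control mice of the same sex and number had 0.007 to 0.331. NR-treated Alport and NR-treated control mice were not paired in this way, and mice of different numbers were not compared. Whether a number marks a shared batch or litter was thus not tested. Counts of the 48 pairs of mice within groups differed by more than sampling noise (the lowest chi-square was 7.56 times its degrees of freedom), so no library was counted as a repeat of another.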

Additional observations from a re-analysis of the deposited data

Results flagged for a closer look

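In each of the 72 sets of 4 mice (9 enzymes in 8 groups), the highest and lowest mouse were compared with the other 3 by Dixon's ratio, which chance passes in about 1 of 20 sets. It passed in 3. *Idh2* was 513 CPM in female control vehicle replicate 1 and 469 to 475 CPM in the other 3 mice. *Suclg1* was 201 CPM in female Alport NR replicate 4 and 229.4 to 232 CPM in the others. *Fh1* was 277 CPM in male control NR replicate 4 and 209.9 to 216 CPM in the others. No enzyme moved in opposite directions in groups under the same contrast for every mouse (54 checks), and no interaction was called.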

How the results depend on the processing

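The 9 of 9 enzymes called lower in Alport mice were called in both sexes under DESeq2, limma-voom, both filters, the replicate block, all 32 mice in 1 fit and without each mouse in turn (9 to 9), and not with total counts alone (6 and 7). Leaving out each mouse kept 0 called for NR in male Alport, female Alport and male control mice and 3 called between the sexes. It gave 1 to 2 for NR in female controls, 0 to 2 for NR in Alport mice of both sexes, 0 to 3 for NR in controls of both sexes, 0 to 2 in males and 6 to 7 in females for NR-treated Alport mice against vehicle-treated controls, and 0 to 1 for sex by NR in controls (*Sucla2*, adjusted p = 0.0318 in edgeR without male control NR replicate 4).

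Counts moved as follows. For NR in female Alport mice DESeq2 called 1, and over all genes 728 in place of 72. For NR in female controls total counts, no filter and the replicate block each called 1 and all 32 mice 0. For NR in Alport mice of both sexes, all 32 mice called 2. For NR in controls of both sexes, where 1 was called, DESeq2 called 4, limma-voom 3, RLE factors, the stricter filter and the fit with no robust dispersion 2 each, total counts, no filter, the replicate block and all 32 mice 0, and leaving out male control NR replicates 1 and 3 gave 3. For NR-treated Alport against vehicle-treated control males, DESeq2 called 2, RLE factors 1, total counts 1 and all 32 mice 6. Between the sexes total counts called 1 and all 32 mice 0. The block changed no other count of the 9 enzymes by over 1.5 times. Over all genes it moved the calls for NR from 654 to 413 in male and from 956 to 406 in female controls, from 3535 to 2313 for NR-treated Alport against vehicle-treated control females, and from 7 to 27 for NR by genotype. By their labels the samples of a block share only a number.

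Signs turned with total counts alone for *Cs* in Alport against control males (0.060), for *Ogdh* (−0.019), *Sucla2* (−0.033) and *Fh1* (−0.028) with NR in Alport males, for *Sucla2* with NR in Alport females (−0.043) and both sexes (−0.038), for *Cs* (0.16), *Idh3a* (0.082) and *Mdh2* (0.049) in NR-treated Alport against control males, for *Cs* in females (0.0092), and between the sexes for *Cs* (−0.12), *Ogdh* (−0.064), *Sdha* (−0.12), *Fh1* (−0.047) and *Mdh2* (−0.080). Without male control NR replicates 1 and 3, *Ogdh* was 0.060, *Sdha* 0.014 and, over both sexes, *Sucla2* 0.057. *Fh1* with NR in control males was −0.0040 in limma-voom, −0.0014 with the replicate block and −0.0010 with all 32 mice, and *Idh3a* between the sexes 0.011 with all 32 mice.

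Leaving out 1 mouse gave ranges across 0 for NR in Alport males for *Idh2* (−0.011 to 0.32), *Ogdh* (−0.036 to 0.25), *Sucla2* (−0.087 to 0.27), *Suclg1* (−0.036 to 0.33), *Sdha* (−0.0062 to 0.32) and *Fh1* (−0.049 to 0.23), for NR in control males for *Idh2* (−0.072 to 0.015), *Ogdh* (−0.082 to 0.012), *Sdha* (−0.032 to 0.019) and *Fh1* (−0.085 to 0.038), and for *Idh3a* between the sexes (−0.036 to 0.026). The log2 ratio of *Idh2* to *Idh3a* differed by −0.37 to −0.28 between genotypes, and that of *Sucla2* to *Suclg2* by −0.14 to −0.11. With NR the latter differed by −0.044 to 0.040 in the Alport genotype and by 0.060 to 0.12 in controls, called without male control NR replicate 3 (exact permutation, adjusted p = 0.0498). The cause of these shifts was not tested. The part of depth in the NR comparisons was not tested.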

Other observations

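Genes around the cycle enzymes gave further values. Among the 20 mitochondrial genes outside the cycle, *Hspd1*, the matrix chaperonin, was lowest in Alport mice against controls (log2FC −0.80 ± 0.14 in males, −0.74 ± 0.10 in females). In female controls given NR, all 20 had a log2FC above 0 and 3 were called higher, *Timm23* of the inner membrane translocase (0.25 ± 0.06), the prohibitin *Phb* (0.28 ± 0.07) and the matrix protease subunit *Clpp* (0.23 ± 0.07). In the same mice *Idh1*, the cytosolic NADP-dependent isocitrate dehydrogenase (0.39 ± 0.09), *Sdhaf4*, an assembly factor of succinate dehydrogenase (0.58 ± 0.12), and *Mpc2* of the pyruvate carrier (0.30 ± 0.08) rose. In male controls given NR, 0 of these 20 genes were called by edgeR, with 12 above 0, 8 below and 1 at an unadjusted p under 0.05.

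Cell type markers also moved in male controls given NR. All 5 endothelial markers rose (median log2FC 0.64), as did 2 of 7 immune, 3 of 6 fibroblast and 2 of 4 injured tubule markers, and 1 proximal tubule marker of 12 rose and 1 fell. In female controls given NR, 0 of 5 endothelial, 0 of 7 immune, 0 of 6 fibroblast and 0 of 4 injured tubule markers were called by edgeR (1, 0, 1 and 1 at an unadjusted p under 0.05). In the test of the difference between the sexes, 1 of 5 endothelial markers was called (*Pecam1*, male minus female 0.59 ± 0.13, adjusted p = 0.0454), and 0 of 8 immune, 0 of 6 fibroblast and 0 of 4 injured tubule markers were called by edgeR (2, 4 and 2 at an unadjusted p under 0.05). Without male control NR replicates 1 and 3 this test called 0 of 15921 genes, so the call of *Pecam1* was lost. For NR in male controls, calls over all genes went from 654 to 127 without them. Counts of these lists without those replicates or in other tools were not made.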
